A study of Sus scrofa with 6 samples.

Results

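A set of 43 protein-coding genes of the pig (Sus scrofa) embryo was chosen by the rule below. Each was lower in all 3 LncT knockdown libraries than in each of 3 control libraries, with knockdown means 19.5% to 71.0% of control means. Of 10417 tested genes, 298 were lower in every knockdown than in every control, and the 43 also met the other conditions of the rule. The libraries were made from embryos at the 8-cell stage. The knockdown embryos carried the genotype label LncT KD and had received siRNA, the control embryos carried the label Control for genotype and treatment, and cytoplasmic injection of siRNA is the manipulation given in the labels of both groups. The agent given to the controls, the strain, the number of embryos per library and whether replicates came from separate collections are absent from the labels, so the spread between libraries may be technical.

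Values are FPKM, a count scaled by transcript length and library depth, summed over the transcripts of a gene, and are given for controls 1, 2 and 3 first and then for knockdowns 1, 2 and 3. A gene was a member when its mean over the 6 libraries was at least 1 FPKM, its highest knockdown was at most 0.8 of its lowest control, and control 3 lay above 0.5 of the mean of controls 1 and 2. Of 29874 genes, 10417 had the required mean. The ratio condition was met by 62 of these (0.595%), the condition on control 3 by 56 of the 62, and 13 of the 56 were set aside because they had a locus identifier in place of a symbol (names starting ZNF, TRNA or MIR were left out likewise). The condition that chose the genes is the comparison of knockdown with control itself, so the differences below are a description of the chosen genes and carry no test.

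The 8-cell pig embryo stands near the handover from messenger RNA stored in the egg to transcription by the embryo's own genome. Stored transcripts are degraded while new ones accumulate, so a lower level at this stage can be a stored transcript that was cleared further or a new transcript that was made less. These libraries do not separate the 2 cases, and in libraries of embryos fewer cells and less RNA per cell cannot be told apart either. FPKM is relative to the rest of each library, so a change in other transcripts can shift it as well. The part of this was not tested.

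Control 3 stood apart from the other controls. Across the tested genes it correlated (Spearman) at 0.611 and 0.655 with controls 1 and 2 and at up to 0.941 with the knockdowns, while the pair of controls 1 and 2 reached 0.922. Mean read depth per FPKM was 6.29 to 7.03 in 5 libraries and 9.41 in knockdown 2, and mitochondrial transcripts took 18.5% to 35.4% of TPM in controls and 22.8% to 38.3% in knockdowns. All 10 oocyte and early embryo markers were detected, including BMP15, GDF9 and ZP4. All 4 sperm markers were listed at 0, and the summed level of 11 cumulus and granulosa markers was 9.65 to 11.11 FPKM in controls and 9.55 to 13.9 in knockdowns, with FOXL2 listed at 0 in every library. INHBA and VCAN carried most of that sum, whereas the cumulus marker TNFAIP6 had 0.0864, 0.352 and 0.537 FPKM in the controls and 1.59, 1.46 and 1.74 FPKM in the knockdowns, higher in every knockdown. Its part in the results was not tested. The 7 trophectoderm markers summed to 0.943, 3.40 and 15.5 FPKM in the controls and 8.50 to 13.4 FPKM in the knockdowns, and 3 blood markers to 0.542 FPKM or less. Outside control 1, TFAP2C carried most of the trophectoderm sum, at 12.8 FPKM in control 3 and 7.47 to 11.4 FPKM in the knockdowns. Of the 7, 5 were under 1 FPKM in every library, among them CDX2, KRT8 and KRT18, and GATA2 was listed at 0. The transcript called LncT was not identified by the labels, so its own level was not checked. The column names carry the prefix SL and the sample titles siL.

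Asking for the ratio to hold against control 3, and not controls 1 and 2 alone, is what made the set small. With control 3 left aside, 1757 of the tested genes had their highest knockdown at or below 0.8 of the lower of controls 1 and 2, and 3.53% of them still met the condition once control 3 was added. With control 1 left aside the condition was met by 90 genes, and with control 2 left aside by 120. In the opposite direction, 146 genes (1.40%) had their lowest knockdown at least 1.25 times the highest control. Ranges that did not overlap at all, with the knockdowns lower, were seen for 298 genes (2.86%), and with the knockdowns higher for 456 of the 10417 genes.

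**Figure D1:**
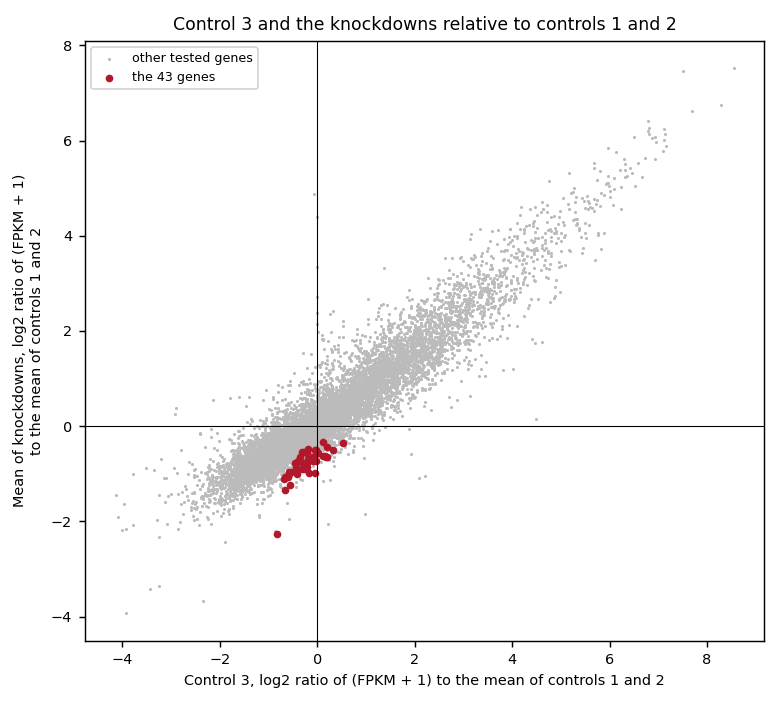
Each point is 1 of the 10417 tested genes; the horizontal axis is the log2 ratio of FPKM + 1 in control 3 to the mean of controls 1 and 2, and the vertical axis is the same ratio for the mean of the 3 knockdowns. Most genes lie along the diagonal, where control 3 and the knockdowns depart together from controls 1 and 2, while the 43 genes (red) lie below it.

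In limma, fitted to log2(FPKM + 1) over all 10417 genes, 0 of the 43 genes passed an adjusted p of 0.05, as did 0 genes in all (0% lower), with a smallest adjusted p of 0.775. At an unadjusted p under 0.05 there were 27 of the 43, against 61 tested genes that were lower (0.586%) and 375 that were higher (3.6%). Without control 3, 14 of the 43 passed the adjusted threshold, against 752 tested genes that were lower (7.22%) and 2102 that were higher (20.2%). Nothing is read from these counts, because the genes were picked on the same values.

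The median knockdown mean of the 43 genes was 0.504 of the control mean. There were 21 genes below 0.5 of the control mean, and NT5C2 was the lowest at 0.195. After a log2 transform of FPKM + 1, in which differences of weakly expressed genes come out too small, the median difference was -0.71, from -2.55 to -0.38, with a median SE of 0.28, while the median over all tested genes was 0.00. Summed over the 43 genes, the level was 722, 651 and 617 FPKM in controls 1, 2 and 3 and 377, 430 and 436 FPKM in knockdowns 1, 2 and 3. HIGD1A held most of that sum. Without it, the remaining 42 genes summed to 320, 275 and 241 FPKM in the controls and to 140, 140 and 143 FPKM in the knockdowns.

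**Figure D2:**
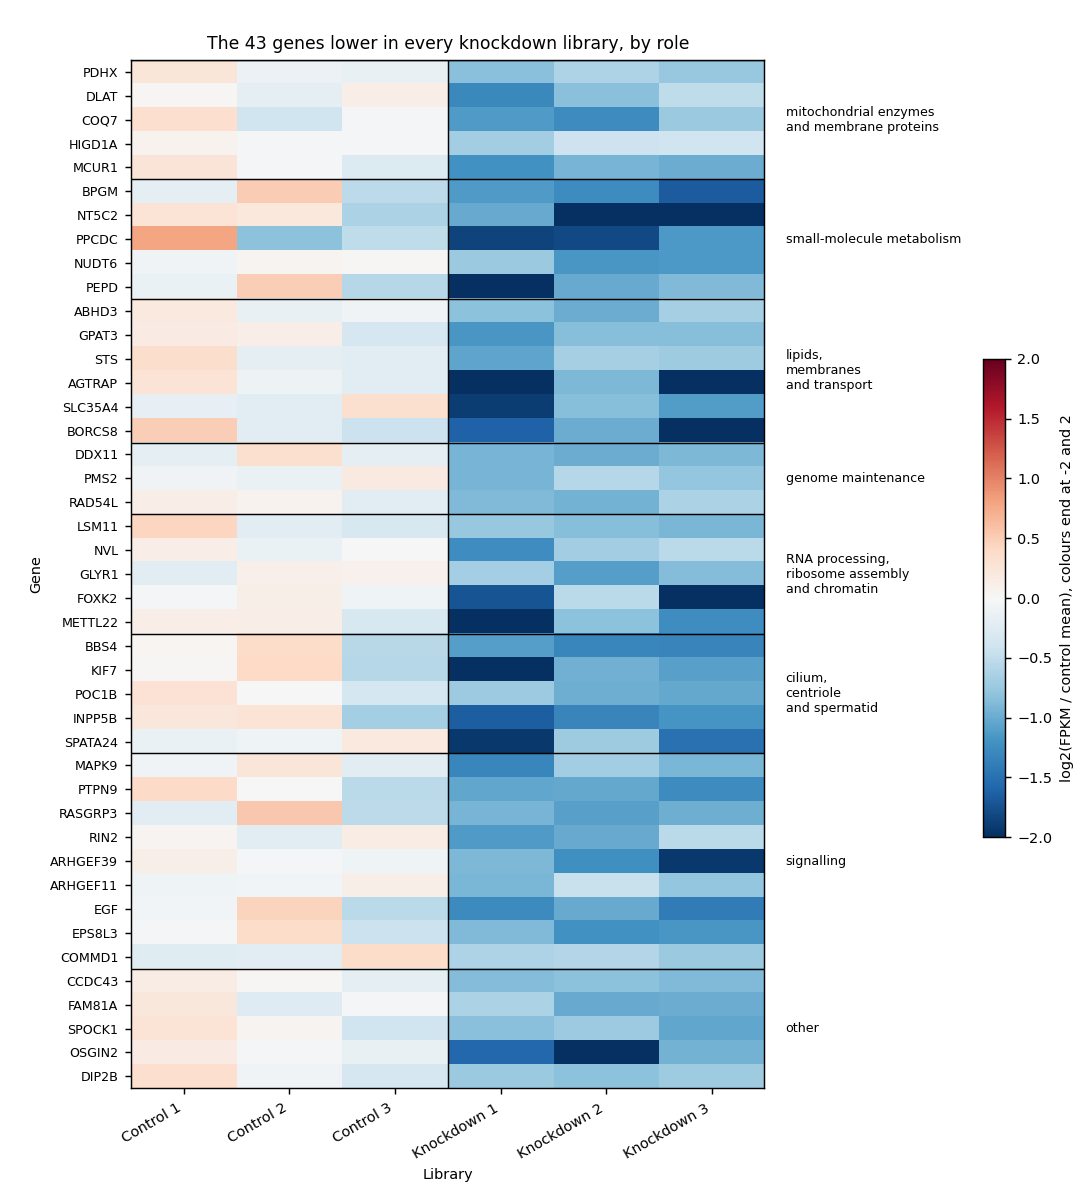
Rows are the 43 genes by role and columns the 6 libraries; colour gives the log2 ratio of FPKM to the control mean of the gene, with the scale ending at -2 and 2. The 3 knockdown columns are blue in every row by the choice of genes, and the depth of colour varies among knockdowns, most of all for NT5C2.

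Weakly expressed genes were more frequent among the 43 than among the tested genes. The median of the mean level was 2.14 FPKM, against 6.66 FPKM over all tested genes, and 18 of the 43 (41.9%) lay under 2 FPKM, against 19.6%. There were 5 genes at 10 FPKM or more (11.6%), against 40.6%. These comparisons are with all 10417 tested genes, of which 7601 had a name the rule accepts. The part of the name filter in the lower level was not tested. Read depth over the 43 genes had a median of 16.6 to 24.9 reads per base in the controls and 8.46 to 13.2 in the knockdowns. The thinnest value was that of NT5C2 in knockdown 2, at 1.07 reads per base. The numbers of reads behind single values are not given by these units, so no counting interval is given.

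**Figure D3:**
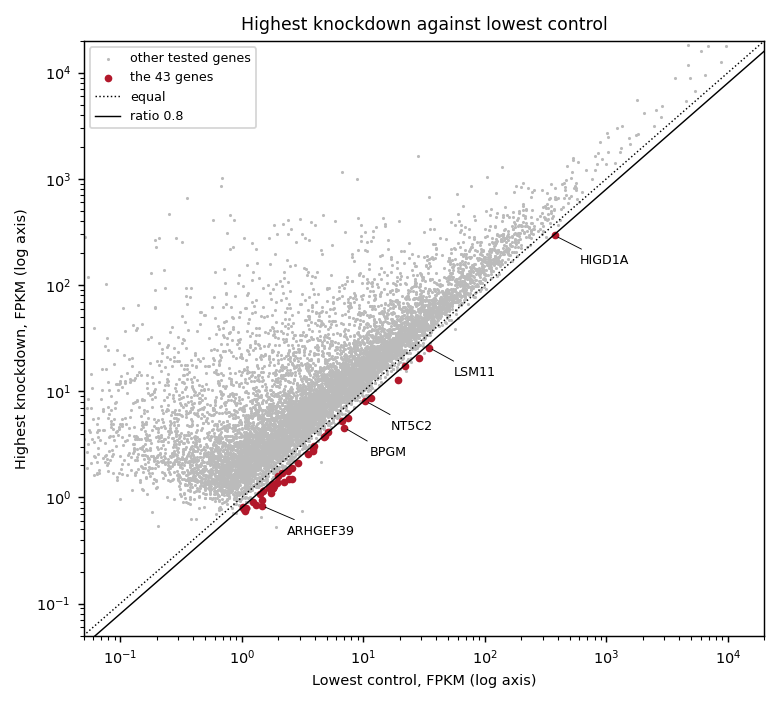
Lowest control (horizontal) against highest knockdown (vertical) in FPKM on log axes, for 9768 tested genes; 649 genes with a value under 0.05 or beyond the upper end of the axes are not drawn. The solid line is the ratio of 0.8 that bounded the 43 genes (red), which reach from about 1 FPKM to HIGD1A at 376 FPKM.

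Controls 1, 2 and 3 were compared among themselves for each gene, as far as the rule leaves them free. Control 3 was the lowest control for 28 of the 43 genes, control 2 for 9 and control 1 for 6, where control 3 was the lowest for 47.7% of tested genes. Control 3 lay within 10% of the mean of controls 1 and 2 for 8 genes, above that mean for 9, and below 0.6 of it for 7. The ratio of the highest to the lowest library had a median of 1.43 among controls and 1.35 among knockdowns, against 2.49 and 1.63 for the 9839 tested genes above 0 in every library. The rule favours genes with close libraries within a group and bars many widely spread ones. The narrower spread is therefore not read as a trait of the 43. For 9 genes the gap between the lowest control and the highest knockdown was wider than the range within either group. For 31 genes it was narrower than the range of the controls.

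Among the mitochondrial proteins were a pair of subunits of the pyruvate dehydrogenase complex, which turns pyruvate into acetyl-CoA for the citric acid cycle. PDHX (chromosome 2, 26014954 to 26094895, Sscrofa11.1), which anchors the dihydrolipoamide dehydrogenase subunit to the core, had 37.6, 29.2 and 28.7 FPKM in controls 1, 2 and 3 and 17.9, 20.7 and 18.9 FPKM in knockdowns 1, 2 and 3. DLAT (chromosome 9, 39738639 to 39763813), the acetyltransferase of that core, had 5.54, 4.81 and 5.93 FPKM in the controls and 2.22, 3.03 and 3.83 FPKM in the knockdowns. Control 3 was close to the other controls for both genes, and for DLAT it was the highest. The mean difference was -0.70 ± 0.29 (SE) for PDHX and -0.69 ± 0.30 (SE) for DLAT on the log2 scale. Other subunits of the complex were looked up after these values were seen, and none of the 4 was lower in every knockdown. PDHB had 2.57, 1.21 and 48.7 FPKM in the controls and 33.5, 32.0 and 69.0 FPKM in the knockdowns, and DLD with 9.78, 8.35 and 111 FPKM and 35.7, 61.3 and 84.6 FPKM. PDHA1 had 11.8, 9.36 and 24.7 FPKM in the controls and 23.3, 52.1 and 29.6 FPKM in the knockdowns. In PDHB, DLD and PDHA1 control 3 was the highest control and lay within or above the range of the knockdowns. PDHA2, the other gene for the alpha subunit, had 0.410, 0.296 and 1.04 FPKM in the controls and 2.52, 3.005 and 3.46 FPKM in the knockdowns, so that every knockdown was above every control.

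HIGD1A (chromosome 13, 26278202 to 26286334), a small inner membrane protein tied to the respiratory chain and induced by low oxygen, was the most abundant of the 43. It had 402, 376 and 376 FPKM in the controls and 237, 289 and 293 FPKM in the knockdowns, a mean of 385 ± 15.1 against 273 ± 31.6 FPKM (SD, n = 3). Knockdown 1 was the lowest, and the 3 controls lay closer together than the knockdowns did. All of this level was assigned to 1 of its 8 transcript rows, a model that RefSeq classes as non-coding (prefix XR). HIGD2A, a related gene, had 143, 120 and 142 FPKM in the controls and 132, 231 and 157 FPKM in the knockdowns, where the groups overlapped.

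COQ7 (chromosome 3, 26366006 to 26373604), a hydroxylase of coenzyme Q synthesis, had 36.4, 21.95 and 28.2 FPKM in the controls and 13.2, 12.04 and 17.3 FPKM in the knockdowns. Control 3 lay between the other controls, and the mean was 28.8 ± 7.26 against 14.2 ± 2.76 FPKM (SD, n = 3). Of the 10 tested genes in a list of coenzyme Q synthesis, COQ7 was the 1 gene that met the ratio condition in this direction. In the other direction 0 met it, and the list median was -0.14. Over all tested genes the shares were 0.595% and 1.4%, and 1 gene of a short list is not read as a result. COQ8B, whose mean of under 1 FPKM kept it out of the test, had 1.24, 1.65 and 1.36 FPKM in the controls and 0.269, 0.484 and 0.405 FPKM in the knockdowns. It was picked out after its values were seen. MCUR1, a regulator of calcium uptake into mitochondria, had 3.23, 2.65 and 2.22 FPKM in the controls and 1.17, 1.41 and 1.35 FPKM in the knockdowns. In the list of respiratory chain and ATP synthase genes, 0 of 42 tested members met the ratio condition in either direction, and the median was 0.63. That median is not read as a knockdown difference, since control 3 stood apart. In COX7A2 controls 1 and 2 had 2.70 and 0 FPKM, against 185 in control 3 and 73.5 to 154 in the knockdowns.

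Of the enzymes of small-molecule metabolism, NT5C2 (chromosome 14, 114062451 to 114167460), a nucleotidase that acts on purine monophosphates, had the largest mean difference and the widest spread. It had 19.6, 18.7 and 10.4 FPKM in the controls and 8.09, 0.114 and 1.29 FPKM in the knockdowns. Knockdown 1 lay close under control 3, whereas knockdown 2 held almost no signal, and the highest knockdown was 71.0 times the lowest. The gene span overlaps that of PCGF6 (114062457 to 114287458), a Polycomb protein, which had 6.74, 8.41 and 14.01 FPKM in the controls and 13.8, 20.0 and 19.7 FPKM in the knockdowns. No label says whether counting used strand, so the reads of the 2 genes may not be separable. Of 34 tested genes of purine and pyrimidine metabolism, NT5C2 was the 1 gene that met the ratio condition, against 0.595% of all tested genes. The list median was 0.02.

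BPGM (chromosome 18, 14555919 to 14593321), which diverts a glycolytic intermediate into bisphosphoglycerate, had 8.81, 14.2 and 6.95 FPKM in the controls and 4.55, 4.20 and 3.15 FPKM in the knockdowns. Control 2 was well above the other controls, and the log2 difference was -1.10 ± 0.35 (SE). In the list of glycolysis and its side branches, 1 of 22 tested genes met the ratio condition in the lower direction and 0 in the other. Over all tested genes the shares were 0.595% and 1.4%. The list median was 0.33. PPCDC, a decarboxylase of coenzyme A synthesis, had 6.53, 2.14 and 2.64 FPKM in the controls and 1.05, 1.08 and 1.70 FPKM in the knockdowns, with control 1 far above the other controls. PEPD, a peptidase that releases proline, had 2.72, 4.20 and 2.01 FPKM and 0.539, 1.49 and 1.61 FPKM. NUDT6, a Nudix hydrolase family member, had 1.75, 1.91 and 1.88 FPKM in the controls and 1.11, 0.824 and 0.832 FPKM in the knockdowns. By gene sum its controls were among the closest of the set, but its leading transcript row overlapped between the groups. The span of NUDT6 (chromosome 8, 101241155 to 101302760) overlaps FGF2, which had 3.56, 2.65 and 3.09 FPKM and 1.71, 4.97 and 2.96 FPKM, with overlapping groups.

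**Figure D4:**
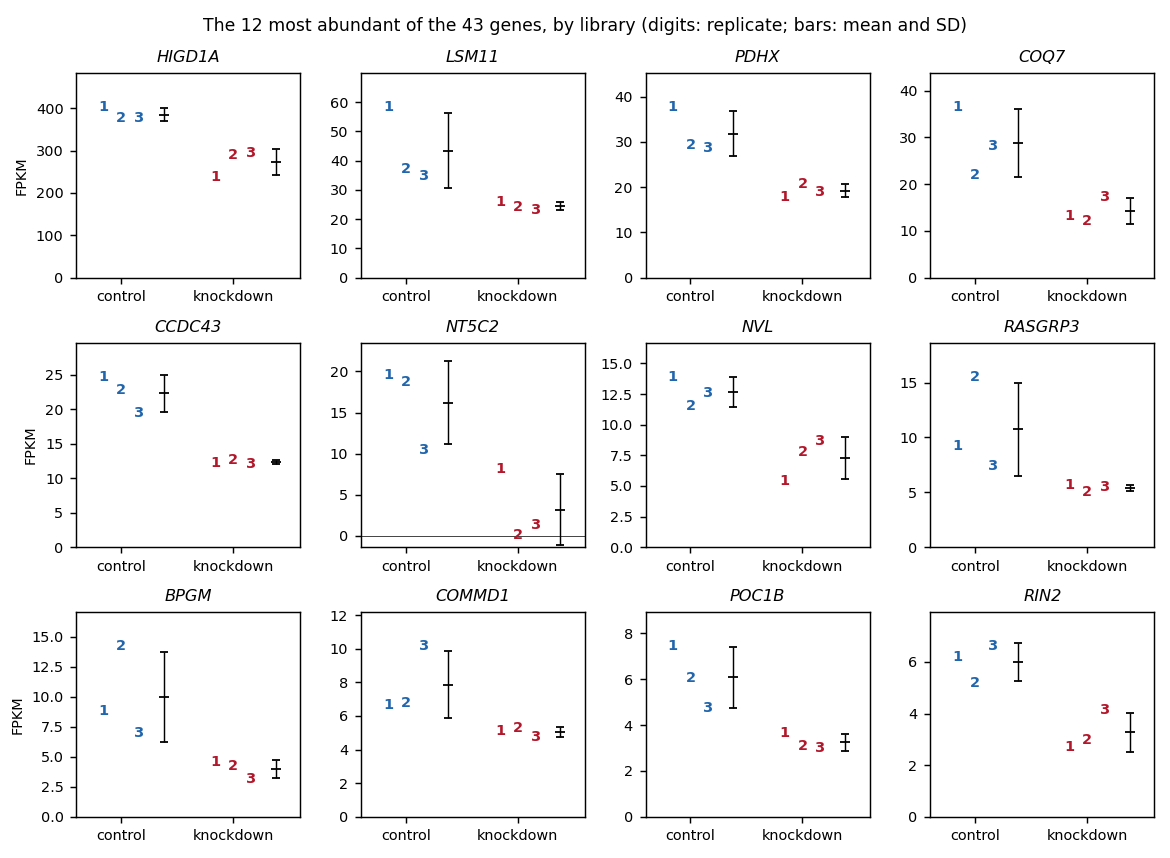
FPKM of the 12 genes with the highest control means, by library; digits are replicate numbers, and the bars to the right of each group are the mean and SD (n = 3). Every panel has its own vertical axis. Control 3 is the lowest control for HIGD1A, LSM11, PDHX, CCDC43, NT5C2, RASGRP3, BPGM and POC1B, and the highest for COMMD1 and RIN2. The knockdowns of NT5C2 range from 0.114 to 8.09 FPKM.

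A group of 6 genes act on lipids, membranes and transport, all at a mean of 1.02 to 3.38 FPKM. BORCS8, a subunit of the complex that positions lysosomes, had 3.41, 2.07 and 1.81 FPKM in the controls and 0.788, 1.22 and 0.553 FPKM in the knockdowns. AGTRAP, which binds the angiotensin receptor, had 2.11, 1.63 and 1.48 FPKM and 0.437, 0.936 and 0.364 FPKM. In both genes knockdown 2 was the highest knockdown and knockdown 3 the lowest. ABHD3, a phospholipase, had 4.97, 3.88 and 4.10 FPKM in the controls and 2.44, 2.18 and 2.73 FPKM in the knockdowns. SLC35A4, of the nucleotide sugar transporter family, had 1.38, 1.31 and 1.93 FPKM and 0.413, 0.853 and 0.712 FPKM, with control 3 the highest control. GPAT3, an acyltransferase of triglyceride synthesis, had 1.499, 1.47 and 1.06 FPKM and 0.597, 0.743 and 0.749 FPKM. STS, the steroid sulfatase on chromosome X, had 1.83, 1.25 and 1.24 FPKM and 0.693, 0.910 and 0.885 FPKM. Of 17 tested genes of lysosome positioning, BORCS8 was the 1 gene that met the ratio condition, against 0.595% of all tested genes. The list median was 0.32.

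The genome maintenance genes were a helicase of sister chromatid cohesion, a mismatch repair protein and a recombination factor, with control means of 2.07 to 2.81 FPKM. DDX11 (chromosome 5, 67359399 to 67395739), the helicase, had 2.44, 3.50 and 2.47 FPKM in the controls and 1.48, 1.41 and 1.51 FPKM in the knockdowns. PMS2, the mismatch repair protein, had 2.51, 2.40 and 2.99 FPKM and 1.39, 1.78 and 1.53 FPKM. RAD54L, the recombination factor, had 2.27, 2.17 and 1.78 FPKM and 1.12, 1.08 and 1.33 FPKM. The knockdown values of DDX11 lay closer together than its controls, and control 3 was the highest control of PMS2. In the list of DNA repair and replication, 2 of 79 tested genes met the ratio condition in the lower direction and 2 in the other. Over all tested genes the shares were 0.595% and 1.4%. The 2 lower genes are PMS2 and RAD54L themselves, and nothing is read from so few. The list median was -0.11.

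Among the genes of RNA processing, ribosome assembly and chromatin, LSM11 (chromosome 16, 65587502 to 65600605) was the most abundant. It is part of the small ribonucleoprotein that trims the ends of replication-dependent histone mRNAs, and it had 58.2, 37.3 and 34.7 FPKM in the controls and 25.8, 24.1 and 23.1 FPKM in the knockdowns. Control 1 stood above the rest, and the knockdowns were close together, at 24.4 ± 1.35 against 43.4 ± 12.9 FPKM (SD, n = 3). Its partner LSM10 had 25.7, 23.3 and 6.62 FPKM in the controls and 18.7, 23.1 and 14.9 FPKM in the knockdowns, with control 3 the lowest of all 6. NVL (chromosome 10, 12564891 to 12670641), an ATPase of large ribosomal subunit assembly, had 13.9, 11.5 and 12.6 FPKM and 5.37, 7.81 and 8.70 FPKM. The end of its span overlaps DEGS1, a sphingolipid desaturase, which had 72.3, 66.8 and 169 FPKM in the controls and 144, 252 and 206 FPKM in the knockdowns.

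GLYR1, a cofactor of the histone demethylase KDM1B, had 3.87, 4.86 and 4.81 FPKM in the controls and 2.83, 2.09 and 2.49 FPKM in the knockdowns. FOXK2, a forkhead transcription factor, had 1.75, 1.93 and 1.68 FPKM and 0.540, 1.23 and 0.386 FPKM. METTL22, a protein lysine methyltransferase, had 2.68, 2.67 and 1.95 FPKM and 0.530, 1.38 and 1.03 FPKM. Knockdown 2 was the highest knockdown of FOXK2 and METTL22 and the lowest of GLYR1. In the list of histone modifiers, 0 of 58 tested genes met the ratio condition in either direction. In the list of DNA methylation and demethylation 0 of 19 met it in the lower direction and 1 in the other. Over all tested genes the shares were 0.595% and 1.4%.

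A further 5 genes belong to the cilium, the centriole or spermatids. POC1B, a centriole protein, had 7.44, 6.06 and 4.77 FPKM in the controls and 3.67, 3.09 and 2.999 FPKM in the knockdowns. BBS4, of the BBSome that carries cargo to the cilium, had 2.81, 3.54 and 1.86 FPKM and 1.27, 1.10 and 1.10 FPKM. INPP5B, an inositol polyphosphate phosphatase, had 3.67, 3.82 and 1.96 FPKM and 1.003, 1.26 and 1.39 FPKM. Control 3 was the lowest control of these 3 genes, as it was of KIF7, a ciliary kinesin of hedgehog signalling, with 1.55, 2.02 and 1.03 FPKM and 0.363, 0.789 and 0.718 FPKM. SPATA24, named for spermatogenesis, had its highest control in control 3, with 1.82, 1.89 and 2.303 FPKM in the controls and 0.526, 1.22 and 0.709 FPKM in the knockdowns.

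The signalling genes were the largest group, with 9 members and a median knockdown mean of 0.504 of the control mean. RASGRP3, an activator of Ras, had 9.21, 15.5 and 7.44 FPKM in the controls and 5.65, 5.07 and 5.48 FPKM in the knockdowns. EGF, a ligand of the epidermal growth factor receptor, had 4.07, 5.76 and 2.91 FPKM and 1.76, 2.11 and 1.61 FPKM. Control 2 was the highest and control 3 the lowest control in both genes. The receptor gene EGFR was at 0.0892 FPKM or less in every library. In EGF, as in HIGD1A, the leading row was a non-coding transcript model, which held 100% of the control level and 76.1% of the knockdown level. Such a row does not show how much coding transcript was present.

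MAPK9, a kinase of the JNK family, had 3.92, 4.88 and 3.54 FPKM in the controls and 1.66, 2.55 and 2.19 FPKM in the knockdowns. Its relative MAPK8 had 64.7, 78.4 and 41.1 FPKM and 44.0, 55.2 and 60.5 FPKM, with overlapping groups. PTPN9, a tyrosine phosphatase, had 4.99, 3.83 and 2.61 FPKM and 1.86, 1.88 and 1.59 FPKM. RIN2, an exchange factor for RAB5 proteins, had 6.19, 5.16 and 6.601 FPKM and 2.72, 2.97 and 4.12 FPKM. The ARHGEF family of exchange factors had 2 members, ARHGEF39, with 1.70, 1.51 and 1.47 FPKM and 0.835, 0.670 and 0.409 FPKM, and ARHGEF11, with 1.40, 1.44 and 1.62 FPKM and 0.789, 1.09 and 0.865 FPKM. ARHGEF39 had the widest separation of the 43, its highest knockdown being 0.569 of its lowest control. COMMD1, a regulator of copper export and of nuclear factor kappa B, had 6.66, 6.79 and 10.1 FPKM and 5.13, 5.26 and 4.72 FPKM. Control 3 was 1.51 times the mean of controls 1 and 2 for COMMD1, the most of any of the 43. EPS8L3, an actin-regulating adaptor, had 1.43, 1.89 and 1.09 FPKM and 0.801, 0.638 and 0.657 FPKM.

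Of the remaining 5 genes, CCDC43 (chromosome 12, 18640229 to 18649731), a coiled-coil protein, was the most abundant, with 24.7, 22.8 and 19.4 FPKM in the controls and 12.2, 12.7 and 12.1 FPKM in the knockdowns. Its groups were far apart for their spread, at 22.3 ± 2.67 against 12.3 ± 0.306 FPKM (SD, n = 3). OSGIN2, of a family induced by oxidative stress, had 3.19, 2.80 and 2.57 FPKM and 0.962, 0.608 and 1.49 FPKM. It was the 1 gene of 36 tested in the list of autophagy and cell death that met the ratio condition in the lower direction. In the other direction 1 met it. Over all tested genes the shares were 0.595% and 1.4%. DIP2B had 6.27, 4.71 and 3.94 FPKM and 2.96, 2.81 and 3.05 FPKM. FAM81A had 2.08, 1.48 and 1.74 FPKM and 1.15, 0.879 and 0.887 FPKM. The groups of both stood apart by less than their controls ranged. SPOCK1, an extracellular proteoglycan, had 1.63, 1.40 and 1.03 FPKM and 0.754, 0.815 and 0.657 FPKM.

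Levels were also followed by transcript, since a gene sum can hide an exchange between rows. The 43 genes had 186 transcript rows, of which 69 were above 0 in at least 1 library. Of these rows 59 had a lower mean in the knockdowns and 10 a higher one, and 40 were lower with no overlap, against 0 higher with no overlap. The leading row was lower with no overlap for 37 genes, and 25 genes had a single row above 0. For those 25 the row is the gene sum, so the rule itself fixed that it did not overlap. Rows of the other genes add up to sums that were chosen as lower. The share over all transcript rows is not given here, and these counts are not read as support.

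In 6 genes (PTPN9, MAPK9, DDX11, NVL, BBS4 and NUDT6) the leading row itself overlapped between groups, and the split of the level over rows differed between libraries. Whether this reflects the assignment of reads or the isoforms present was not tested. PTPN9 was carried by 1 row in controls 1 and 2, at 4.99 and 3.83 FPKM, which was listed at 0 in the other 4 libraries. Its other row was listed at 0 in controls 1 and 2 and had 2.61 FPKM in control 3 and 1.86, 1.88 and 1.59 FPKM in the knockdowns. Within that shared row the separation rests on control 3 alone. In MAPK9 control 2 was carried by a row of its own, at 4.88 FPKM, and DDX11 and NVL changed their leading row between libraries of the same group. The leading row of NVL had 13.9, 11.5 and 1.59 FPKM in the controls and 2.68, 0.365 and 8.27 FPKM in the knockdowns. That of NUDT6 had 1.66, 1.35 and 0.397 FPKM in the controls and 0.957, 0.551 and 0.371 FPKM in the knockdowns. Of the 3 rows of NUDT6 above 0, 0 were lower with no overlap. Its other rows, both non-coding models, had 0, 0.486 and 0.876 FPKM and 0.0990, 0.0801 and 0.611 FPKM in the controls. In the knockdowns they had 0.0167, 0.253 and 0.0347 FPKM and 0.136, 0.0192 and 0.427 FPKM. A non-coding model of NVL had 0, 0 and 11.0 FPKM in the controls and 2.69, 7.44 and 0 FPKM in the knockdowns. In control 3 most of the level of both genes lay in such rows, which do not show the coding transcript.

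In BORCS8 the row that led in the controls, at 3.17, 2.07 and 0.794 FPKM, was listed at 0 in every knockdown. Its other row, a non-coding model, had 0.237, 0 and 1.02 FPKM in the controls and 0.788, 1.22 and 0.553 FPKM in the knockdowns. BBS4 likewise had a row at 1.77, 0.804 and 0.720 FPKM in the controls that was listed at 0 in every knockdown, while its other row had 1.04, 2.74 and 1.14 FPKM and 1.27, 1.10 and 1.10 FPKM, with overlapping groups. A listed 0 can come from an estimate that failed, and the absence of these transcripts is not claimed.

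**Figure D5:**
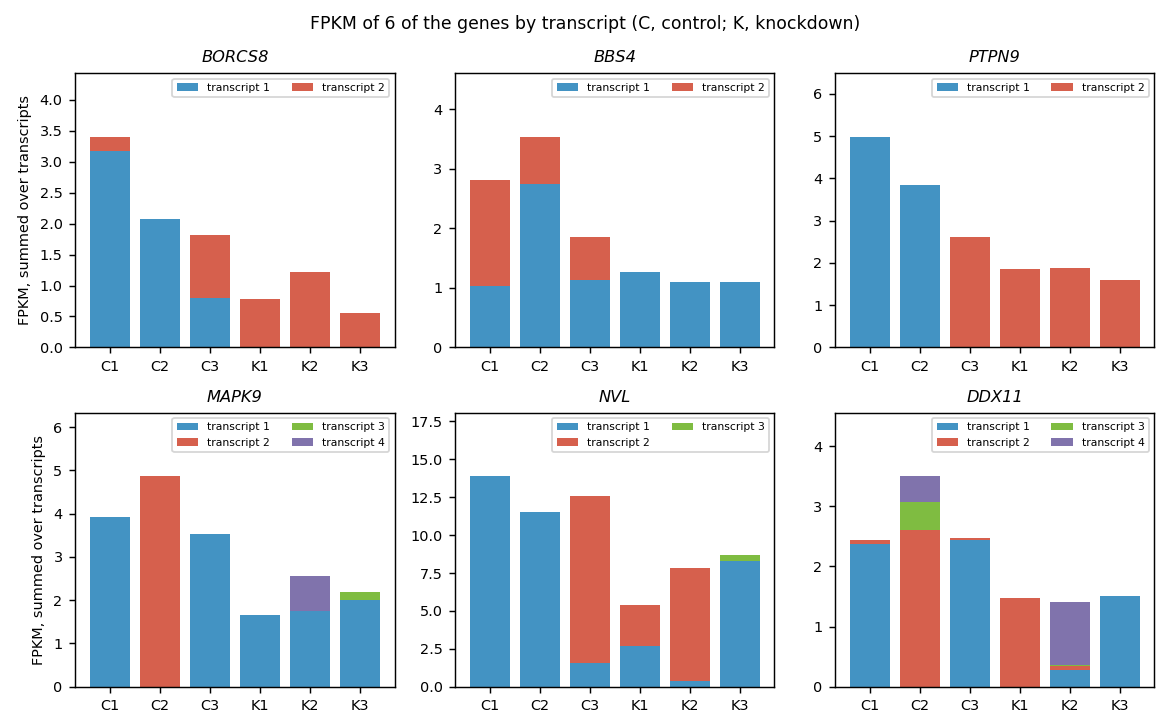
Stacked bars give the FPKM of each transcript row above 0 for 6 of the genes in controls 1 to 3 (C) and knockdowns 1 to 3 (K). BORCS8 and BBS4 lack 1 row in all knockdowns, PTPN9 is carried by different rows in controls 1 and 2 and in the other 4 libraries, and MAPK9, NVL and DDX11 differ between libraries of 1 group.

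The 43 genes shared few features that the rule did not use. All 43 were protein coding in the RefSeq gene table, against 80.3% of tested genes, though the rule left out locus identifiers and names of tRNA and microRNA genes. They had a median of 3 transcript rows against 2, and a median span of 54.8 kb against 27.9 kb. The tested genes here are all 10417, of which 7601 had a name the rule accepts. The name filter alone may therefore shift these features, and they are not read as traits of the 43. They lay on 17 chromosomes, with 6 each on chromosomes 2 and 3, and the closest pair, PTPN9 and PPCDC on chromosome 7, was 342 kb apart. Another gene overlapped the span of 16 of the 43 (37.2%), against 37.6% of tested genes. Values of overlapping genes, and of genes with near-identical copies, are uncertain.

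The pattern over the 6 libraries was alike by construction, so likeness was also taken on the deviations from the group means. Over the 903 pairs of the 43 genes, Pearson's r across the 6 libraries had a median of 0.84, whereas the r of the deviations had a median of 0.17 and ranged from -0.99 to 0.99. Among the 12 genes with the widest separation, SPATA24 was most like ARHGEF11 (r = 0.997, and 0.993 for the deviations), BBS4 most like EPS8L3 (0.995 and 0.978) and MCUR1 most like PDHX (0.989 and 0.910). Each partner was picked as the highest r among all the other genes, and the pairs printed have the highest r of the 12. Values near 1 therefore follow in part from the choice. The lowest r of the deviations among the 12 was 0.565, for ARHGEF39 with NUDT6. All these values come from 6 libraries that all genes share and are given as a description.

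The limits of the rule passed through a continuous range of genes. Just inside the ratio of 0.8 were DLAT at 0.795, RIN2 at 0.798 and PEPD at 0.7998, and just outside it were ERI2 at 0.803, SHISA2 at 0.805 and F2RL1 at 0.805. ERI2, an exonuclease family member, had 24.3, 33.3 and 25.5 FPKM in the controls and 19.5, 19.5 and 18.9 FPKM in the knockdowns. On the condition for control 3, INPP5B at 0.523 and NT5C2 at 0.544 of the mean of controls 1 and 2 were just inside. Among genes with a symbol, BOD1 at 0.434 and STAT5A at 0.311 were the next outside, and 4 genes with locus identifiers also lay outside, at 0.167 to 0.485. BOD1, of chromosome alignment, had 159, 102 and 56.8 FPKM in the controls and 28.0, 38.3 and 36.3 FPKM in the knockdowns. On the mean level, GPAT3 at 1.02 FPKM and SPOCK1 at 1.05 FPKM were just inside, and ZKSCAN7 at 0.986 FPKM and RAD52 at 0.963 FPKM just outside.

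A comparison with 18 lists of pathways and gene classes of the early embryo placed 7 of the 43 genes on 6 lists, and 12 lists held none. The list of oocyte and maternal-effect genes had 0 of 33 tested members that met the ratio condition in either direction, with a median log2 difference of -0.33. Genome activation factors had 0 of 22 in the lower direction and 3 in the other, against 0.595% and 1.4% of all tested genes. Their median was 1.24. With all 6 libraries limma called 0 genes on either list. In ARGFX controls 1 and 2 had 0 and 0.0858 FPKM, against 115 in control 3 and 71.6 to 100 in the knockdowns. GDF9 had 521 and 542 FPKM there, against 177 in control 3 and 241 to 354 in the knockdowns. Because control 3 stood apart from controls 1 and 2, no list median is read as a knockdown difference. The median over all tested genes was 0.00.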

How the data were processed

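RNA-seq of 8-cell pig embryos used the SMARTer mRNA kit for all 6 libraries (per the labels' protocols). The build was Sscrofa11.1; StringTie 2.1.7, Bowtie2 2.3.5 and cutadapt are listed in the submitters' processing notes without a role. Per the file headers, the deposited table of 81774 transcript rows gives coverage (a signal of mean read depth), FPKM and TPM for each library, made by the authors. A further 9 value columns matched no sample and were not used, nor were sheets that repeat these values.

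FPKM was summed per gene, giving 29874 genes, of which 29850 were in the RefSeq table of Sscrofa11.1, the source of coordinates. A number stood where the gene name belongs in 1758 rows, which took the identifier instead, and 129 date-like names were replaced through the accession. Genes averaging 1 FPKM or more were fitted with limma 3.58.1 (R 4.3.3) on log2(FPKM + 1), with trend, group as the only term and Benjamini-Hochberg adjustment; the fit was tested on simulated data. Differences are knockdown minus control. Python 3.11.15 and pandas 2.3.3 made the tables. The genes and lists were chosen with earlier results of these data known. Genes named are the 12 with the smallest ratio, the 12 with the highest control mean, up to 3 per list and those next to each limit; the others of the 43 were added for completeness. Promoter sequence was not analysed here. Some results are not reported here.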

Additional observations from a re-analysis of the deposited data

How the results depend on the processing

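The number of genes meeting the rule was 43 in FPKM and 40 in TPM, but 22 of the 43 were among the 40, and all 43 still had their highest knockdown below their lowest control in TPM. Median-of-ratios scaling gave 71 genes (39 of the 43 among them) and quantile normalization 86 (28), and 17 of the 43 met the rule under all 3 scalings. Quantile normalization moved the median of all genes to -0.17. With no minimum mean 147 genes met the rule, with a mean of at least 5 FPKM 10, at a ratio of 0.9 105 and of 0.5 0, and 74 single transcript rows of the whole table met it, where 32 of the 43 genes had at least 1 such row. With 1 library left out the number ran from 53 to 1416. It was 1416 without control 3, 76 without control 2, 124 without knockdown 2 and 110 without knockdown 3, where fewer libraries make the rule easier to meet. The 1757 given above without control 3 used the mean over all 6 libraries and no name filter. The median log2 difference of the 43 was -0.71, and -0.92 and -0.34 with pseudocounts of 0.1 and 5, -0.91 under quantile normalization, -0.89 in TPM, and -0.76 to -0.63 with 1 library left out. limma called 0 to 752 genes lower and 0 to 2102 higher with 1 library left out, the highest numbers without control 3, and 0 under the other alternatives. At an unadjusted p the split of 61 lower and 375 higher became 202 and 296 under quantile normalization and 104 and 265 under median-of-ratios scaling. With the replicate number as a block, limma called 0 genes, with 62 lower and 685 higher at an unadjusted p, and the median of the 43 stayed at -0.71. The deviations of same-numbered libraries correlated at 0.08, 0.06 and 0.23, and control 1 correlated better with knockdown 2 (0.10) than with its own number, so the numbers were not taken as pairs. Of the 43, the 29 genes named by the rule for named genes were recomputed under these alternatives. In 387 values 0 changed sign and 66 moved by more than the replicate spread. By the rule every knockdown lay below every control. Leaving out a library, the pseudocount, the minimum mean and the block could therefore not change a sign, and only the scalings could. The absence of sign changes is not read as support. The causes of the shifts above were not tested.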

Other observations

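Among the 13 genes that met every condition on level but have a locus identifier in place of a symbol, 2 were listed at 0 in at least 1 knockdown. LOC100515579 had 22.3, 26.4 and 28.5 FPKM in the controls and 15.5 FPKM in knockdown 1 and was listed at 0 in knockdowns 2 and 3. LOC102163767 had 13.96, 14.8 and 10.3 FPKM in the controls, was listed at 0 in knockdown 1 and had 8.20 and 7.76 FPKM in knockdowns 2 and 3. LOC106504522 was more even, with 2.42, 1.91 and 2.82 FPKM in the controls and 0.525, 0.397 and 0.432 FPKM in the knockdowns, with control 3 the highest control. LOC110261968 had 38.04, 24.7 and 27.5 FPKM in the controls and 13.8, 18.2 and 18.7 FPKM in the knockdowns. These 4 were picked out after their values were seen.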
